A study of Mus musculus with 12 samples.

Results

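The genes described here are 35 genes that mark astrocytes and Bergmann glia, picked by name from a table of 57010 genes. The table holds bulk RNA sequencing counts from mouse cerebellum. All 35 were found by gene symbol, and all 35 were among the 19166 genes with enough counts to be tested. The tissue was crus 1, part of the lateral hemisphere of the cerebellum, and there were 3 groups of 4 libraries. Fmr1 knockout mice injected intraperitoneally with poly(I:C) formed the treated group, Fmr1 knockout mice given saline the second, and mice of the FVB background strain given saline the third. The Fmr1 product FMRP binds messenger RNA and is missing in human fragile X syndrome. Poly(I:C) is made in the laboratory as double-stranded RNA and is sensed like that of a virus. The titles of the saline knockout samples call them sham. Age, sex, dose and the interval after injection were not given in the sources used here, and poly(I:C)-treated FVB mice were not analysed here. The labels do not say that the libraries came from separate animals, so the p-values measure only how far these samples spread, which may be technical.

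Astrocytes take up glutamate and potassium released by neurons, pass ions and metabolites to each other through gap junctions, and line blood vessels with end-feet rich in water channels. Bergmann glia are the radial astrocytes of the cerebellar cortex, whose processes wrap Purkinje cell synapses and carry glutamate transporters at high density. Glial inflammation is often described through genes that these cells switch on, whereas most of the genes here are those of their resting functions. Several are also used by other cells, such as Apoe and Cst3 by microglia and Glul by oligodendrocytes.

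Most of the 35 genes had a log2 fold change within 0.25 of 0, as did most of all tested genes. In treated against saline knockout these were 24 of the 35 and 13756 of the 19166 tested genes. In saline knockout against FVB they were 29 and 14164, and in treated knockout against FVB 24 and 12821. Of the 35 genes, 10 passed the test in at least 1 of the 3 comparisons. Of all tested genes, 2.87% passed in treated against saline knockout, 1.53% in saline knockout against FVB and 7.05% in treated knockout against FVB. The share of all genes that passed in at least 1 comparison was not counted. In poly(I:C)-treated knockout cerebellum, Aqp4, Tril and Slc25a18 were lower than in saline knockout cerebellum. Itih3, Slc25a18, Slc7a10 and Mlc1 were higher in saline knockout cerebellum than in FVB cerebellum. Glul, Gjb6, Agt, Mt3 and Itih3 were higher, and Aqp4 and Tril lower, in treated knockout cerebellum than in FVB cerebellum. Only the calls of Itih3 in saline knockout against FVB and of Mt3 in treated knockout against FVB held under every alternative tried.

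Promoter sequence is shown for 4 of these genes: Glul, Agt and Gjb6, whose highest values were all in treated knockout 3 and 4, and Itih3, whose difference between saline knockout and FVB held under every alternative tried. RefSeq windows on GRCm38.p6, from 250 bases before to 50 after a gene's start, were found for 30 of the 35 genes. Capitals mark a match to the interferon-stimulated response element or the STAT element TTCNNNGAA, searched on both strands. The windows lie at chr1:153899679-153899978 on the plus strand for Glul, and on the minus strand at chr8:124569657-124569956 for Agt, chr14:57133562-57133861 for Gjb6 and chr14:30923538-30923837 for Itih3.
Glul: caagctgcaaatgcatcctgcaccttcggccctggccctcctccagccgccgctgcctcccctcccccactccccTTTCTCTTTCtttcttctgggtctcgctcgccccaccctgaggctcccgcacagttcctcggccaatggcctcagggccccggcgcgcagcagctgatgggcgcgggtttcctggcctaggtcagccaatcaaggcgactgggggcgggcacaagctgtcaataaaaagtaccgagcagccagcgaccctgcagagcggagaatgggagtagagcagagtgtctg
Agt: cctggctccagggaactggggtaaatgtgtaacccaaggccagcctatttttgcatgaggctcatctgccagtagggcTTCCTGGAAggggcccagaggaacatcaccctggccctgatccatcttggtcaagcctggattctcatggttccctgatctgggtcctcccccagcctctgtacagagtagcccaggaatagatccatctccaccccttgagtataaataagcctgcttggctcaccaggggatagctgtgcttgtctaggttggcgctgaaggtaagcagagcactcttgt
Gjb6: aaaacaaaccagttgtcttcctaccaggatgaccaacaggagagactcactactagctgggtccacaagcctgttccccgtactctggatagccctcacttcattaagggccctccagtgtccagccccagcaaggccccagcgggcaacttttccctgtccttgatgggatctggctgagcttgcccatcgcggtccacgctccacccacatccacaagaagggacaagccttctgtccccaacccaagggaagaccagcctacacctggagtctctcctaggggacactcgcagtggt
Itih3: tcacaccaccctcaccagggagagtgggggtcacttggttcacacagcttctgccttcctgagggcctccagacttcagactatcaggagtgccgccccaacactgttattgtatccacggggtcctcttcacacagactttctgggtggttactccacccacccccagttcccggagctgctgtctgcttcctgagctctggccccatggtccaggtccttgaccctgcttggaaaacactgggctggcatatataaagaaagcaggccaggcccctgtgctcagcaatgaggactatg

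In the Glul window the match to the interferon-stimulated element, TTTCTCTTTC, lay 175 to 166 bases before the start. In the Agt window the match to the STAT element, TTCCTGGAA, lay 172 to 164 bases before the start. The windows of Gjb6 and Itih3 held neither element. Of 32851 windows in all, 3.44% held the interferon-stimulated element and 8.3% the STAT element. Among the 38 windows of the 30 genes, 3 held the first element (7.89%; Glul, Acsbg1 and Ttyh1) and 4 the other (10.5%; Agt, Acsbg1, Ntsr2 and Slc1a3). No window of these genes held the nuclear factor I element or the SOX core ACAATGG, which 0.0365% and 3.66% of all windows held. A match describes letters and not a bound site.

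The 35 genes spanned a wide range of levels. Levels are compared between genes in counts-per-million (CPM) per kilobase of exon, and otherwise given in CPM. Exon lengths are from a GENCODE annotation of GRCm38, whereas reads were aligned to GRCm39, so close ranks between genes are uncertain. Apoe, a lipid carrier, had the highest mean, with 722 CPM per kilobase in treated knockout, 653 in saline knockout and 693 in FVB. S100b, a calcium-binding protein, had 384, 407 and 384 CPM per kilobase in the same groups and came next after Apoe in saline knockout and FVB. Sox9, a transcription factor that sets astrocyte identity, had the lowest, with 11.1 CPM per kilobase in treated knockout, 8.66 in saline knockout and 7.89 in FVB. The Bergmann glia gene Gdf10, a secreted ligand of the BMP family, lay between them with 49.9, 48.5 and 46.6. In FVB, Glul held the 6th place. In treated knockout its mean of 406 CPM per kilobase was next after Apoe, above the 394 of Atp1b2 and the 384 of S100b.

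**Figure D1:**
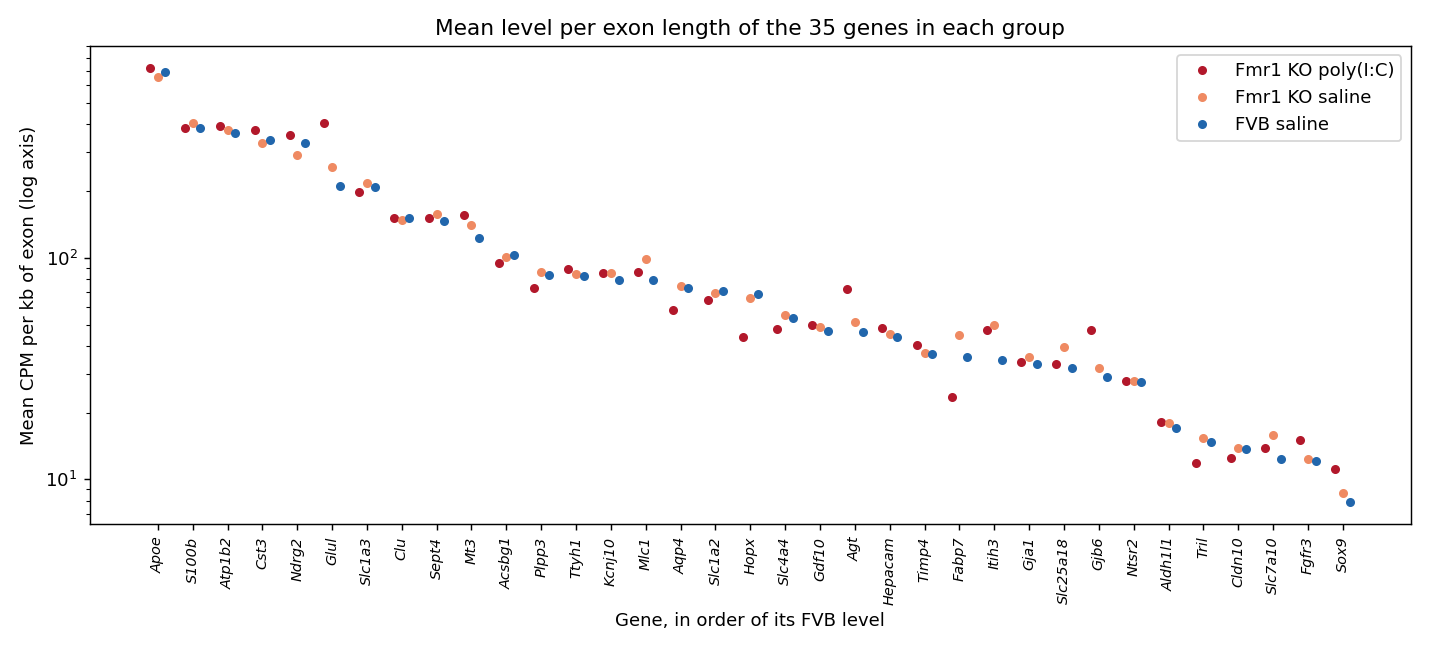
Mean level of each of the 35 genes in CPM per kilobase of exon (log axis), with genes ordered by their FVB level from left to right and a point for each group. Points of the 3 groups lie close together for most genes, and those of Glul, Gjb6 and Agt are highest in treated knockout.

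Libraries of a group also differed from each other unevenly across the genes. The standard deviation of log2 CPM within groups was 0.692 for Fabp7, a fatty acid carrier of Bergmann glia, 0.379 for Hopx, a homeobox protein of radial glia, and 0.286 for Glul. It was 0.0659 for Sept4, a septin of Bergmann glia, and 0.0692 for Apoe. A given fold change was therefore easier to detect in Sept4 or Apoe than in Fabp7 or Hopx.

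The libraries held 39.4 to 56.4 M counts in treated knockout, 38.7 to 50.2 M in saline knockout and 35.2 to 48.7 M in FVB. Each of the 35 genes had at least 4085 counts over the libraries of any group. Fmr1 itself had 33.9 to 36 CPM in treated knockout and 27.9 to 36.7 CPM in saline knockout, against 85.5 to 108 CPM in FVB, so it was lower in both knockout groups. The choroid plexus marker Ttr exceeded 1000 CPM in treated knockout 2 (2167 CPM), treated knockout 3 (2631 CPM) and saline knockout 2 (4156 CPM), and reached 65.3 CPM at most in the other libraries. The summed level of 12 choroid plexus markers ranged from 25.3 to 2861 CPM in treated knockout, 38.7 to 4480 CPM in saline knockout and 36.3 to 101 CPM in FVB. Results are therefore also given without those 3 libraries, which leaves 2 treated knockout, 3 saline knockout and 4 FVB libraries. The summed level of the 35 genes was 14745 to 15886 CPM in treated knockout, 14159 to 15449 in saline knockout and 13757 to 15025 in FVB. These ranges overlap. The summed markers of other glia also overlapped, with microglia markers at 134 to 174, 128 to 161 and 143 to 170 CPM and oligodendrocyte markers at 5852 to 7815, 6261 to 6902 and 5809 to 6751 CPM in the same order of groups. Single markers moved within these sums in treated against saline knockout, and those named were chosen after their values were seen. In that comparison 2.87% of all tested genes were called, and 1.09% without the 3 libraries high in Ttr. Of 10 microglia markers 1 was higher (C1qb, log2 fold change 0.72) and 2 lower (P2ry12, -0.62, and Csf1r, -0.41), and 0 were called without the 3 libraries high in Ttr. With a single library left out 0 to 3 microglia markers were higher and 0 to 2 lower. Of 11 oligodendrocyte markers 1 was lower (Opalin, -1.27), with 4 lower without treated knockout 1 and 2 without saline knockout 2. Of 10 endothelial markers 1 was higher (Ly6c1, 1.14) and 3 lower (Slco1a4, -0.95, Tek, -0.97, and Tie1, -1.01). Their part in the results of the 35 genes was not tested. In whole tissue, fewer cells of a type and less RNA per cell cannot be told apart.

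**Figure D2:**
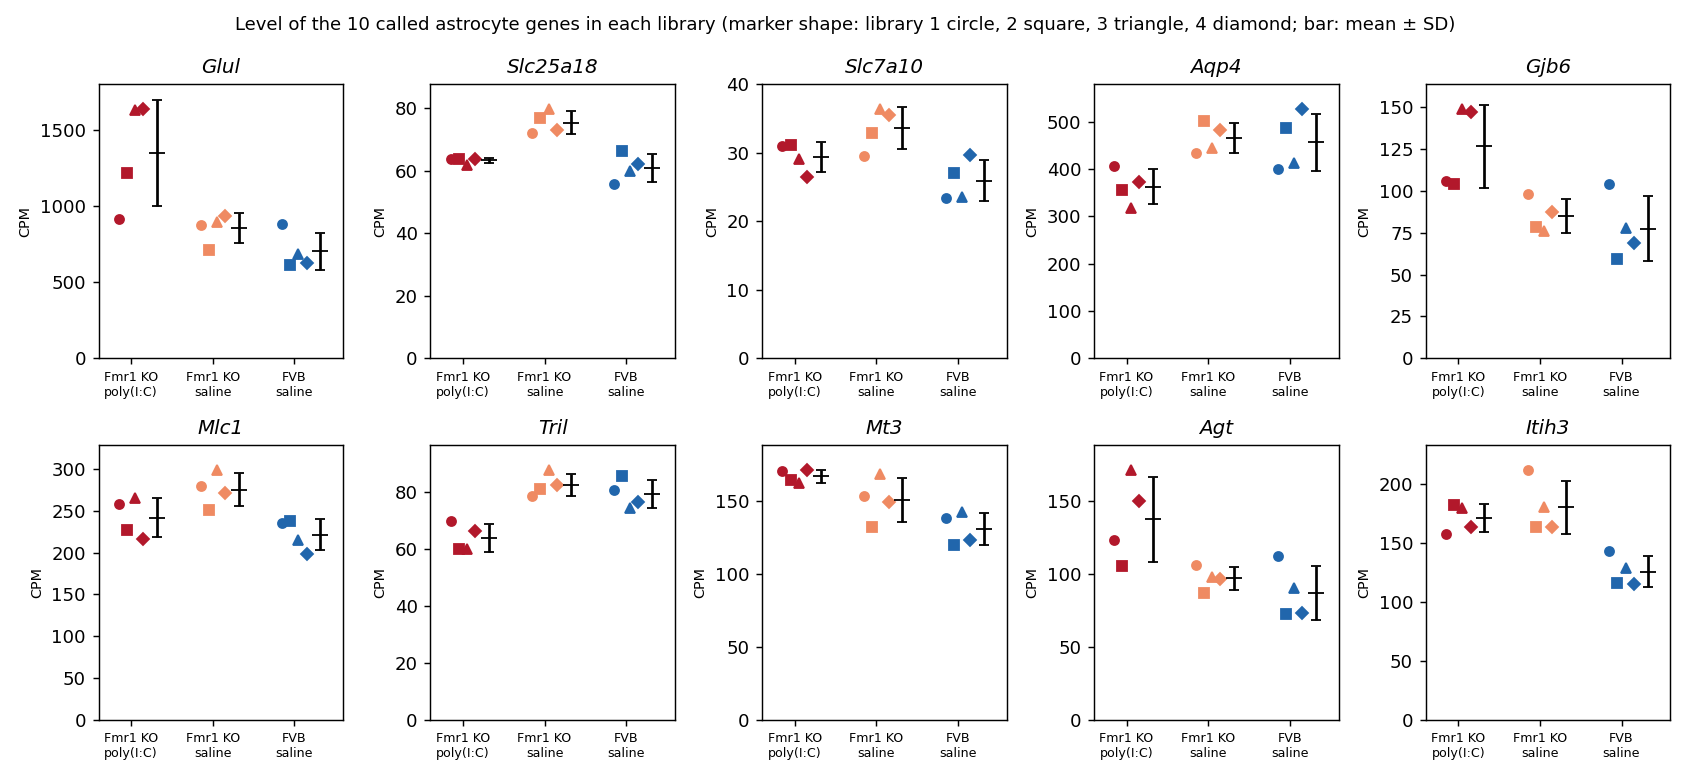
Level in CPM of the 10 genes that passed the test in at least 1 comparison, with a point for each library (its number by marker shape) and bars for the mean ± SD of each group of 4. Glul, Gjb6 and Agt are high in treated knockout 3 and 4, Slc25a18 is high in all 4 saline knockout libraries, and Itih3 is low in all 4 FVB libraries.

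The difference between poly(I:C)-treated and saline Fmr1 knockout cerebellum was read from treated against saline knockout libraries. Of the 35 genes, 3 were lower, 0 were higher and 32 did not pass the test, while 2.87% of all tested genes passed (1.81% higher and 1.06% lower). The median log2 fold change of the 35 genes was 0.013, against -0.00167 over all tested genes. The groups did not overlap in 3 of the 35 that were higher and 5 that were lower, beside 9.75% of all tested genes (4.93% higher and 4.82% lower). At an unadjusted p under 0.05 there were 13 of the 35 and 2973 of the 19166 tested genes. DESeq2 called 8, of which Glul, Agt and Ndrg2 were higher, with 5.14% of all genes called. Limma-voom called 5, of which Glul was higher, with 2.98% of all genes called. The count of 3 became 1 without treated knockout 3, treated knockout 4, saline knockout 2 or saline knockout 3. In those fits 1.78% to 2.13% of all genes were called. The count became 0 without the 3 libraries high in Ttr, where 1.09% of all genes were called.

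Among genes of water, ion and junction transport, Aqp4 passed the test. Aqp4, the water channel of astrocyte end-feet, had 406, 355, 318 and 373 CPM in treated knockout, against 435, 502, 445 and 482 CPM in saline knockout. Every treated library lay below every saline one. The means were 363 ± 36.4 and 466 ± 31.6 CPM (SD, n = 4 each), a log2 fold change of -0.36 (SE 0.0903, adjusted p = 0.0368 by edgeR). The call ended when treated knockout 2, 3 or 4 or saline knockout 2, 3 or 4 was left out (adjusted p = 0.0621 to 0.145), and without robust estimation (adjusted p = 0.0503). Without the libraries high in Ttr the Aqp4 log2 fold change was -0.22 (adjusted p = 0.724).

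Slc4a4, the sodium bicarbonate cotransporter, was closest to the threshold among the other genes of this role, with 516 ± 25.2 CPM in treated knockout and 599 ± 31.0 CPM in saline knockout (log2 fold change -0.22, adjusted p = 0.0643). Its groups did not overlap. Gjb6, a connexin of astrocyte gap junctions, had 104 to 149 CPM in treated knockout against 76.2 to 98.1 CPM in saline knockout, again without overlap (log2 fold change 0.57, adjusted p = 0.155). Another astrocyte connexin, Gja1, averaged 348 and 364 CPM in treated and saline knockout. Kcnj10, the potassium channel that clears extracellular potassium, averaged 464 and 460 CPM, and Atp1b2, a subunit of the sodium pump, 1610 and 1542 CPM. Log2 fold changes of these 3 genes were -0.063, 0.013 and 0.062.

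Of 3 receptor genes, Tril was lower. Tril, an accessory protein of Toll-like receptor signalling, had 69.7, 60, 59.8 and 66.4 CPM in treated knockout, against 78.4, 81.2, 87.7 and 82.3 CPM in saline knockout. No treated library reached the lowest saline library. The means were 64.0 ± 4.88 and 82.4 ± 3.88 CPM, a log2 fold change of -0.36 (SE 0.0678, adjusted p = 0.00362). Tril passed the test whichever single library was left out, and had a log2 fold change of -0.28 (adjusted p = 0.256) without the libraries high in Ttr. Fgfr3, a fibroblast growth factor receptor, averaged 107 ± 18.1 CPM in treated and 87.7 ± 9.09 CPM in saline knockout (log2 fold change 0.29, adjusted p = 0.215), and Ntsr2, a neurotensin receptor, 87.2 and 86.3 CPM.

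Of 5 genes of glutamate and amino acid transport, 1 was lower and 4 did not pass. Slc25a18, a mitochondrial glutamate carrier, had 63.9, 63.8, 62 and 63.7 CPM in treated knockout, against 72.1, 76.8, 79.9 and 72.9 CPM in saline knockout. The treated libraries lay close together and below all saline libraries. The means were 63.4 ± 0.893 and 75.4 ± 3.63 CPM, a log2 fold change of -0.25 (SE 0.063, adjusted p = 0.0357). The Slc25a18 call ended when any single treated knockout library, saline knockout 1, 2 or 3, or FVB 3 was left out (adjusted p = 0.0515 to 0.118) and with the Ttr covariate (adjusted p = 0.0511), and the log2 fold change was -0.23 (adjusted p = 0.499) without the libraries high in Ttr.

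Glul encodes glutamine synthetase, which converts glutamate to glutamine. It had 917, 1214, 1627 and 1639 CPM in treated knockout, against 875, 714, 898 and 934 CPM in saline knockout. Treated knockout 1 fell within the saline range and the other 3 lay above it. The log2 fold change was 0.66 (SE 0.189), with an adjusted p of 0.109 by edgeR, 0.0197 by DESeq2 and 0.0465 by limma-voom. The Glul log2 fold change was 0.5 (adjusted p = 0.733) with the libraries high in Ttr left out. The transporters that clear glutamate from synapses, Slc1a3 and Slc1a2, averaged 1688 ± 80.1 and 847 ± 31.9 CPM in treated knockout, against 1853 ± 152 and 908 ± 71.0 CPM in saline knockout. Their log2 fold changes were -0.13 (adjusted p = 0.374) and -0.1 (adjusted p = 0.492), and that of Slc1a2 was -0.038 (adjusted p = 0.983) without the libraries high in Ttr.

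None of the identity, enzyme or secreted protein genes passed the test in this comparison. At an unadjusted p under 0.05 there were 0 of 7 identity genes, 2 of 4 enzymes and 3 of 6 secreted or metal-binding proteins, and DESeq2 called Ndrg2, Plpp3 and Agt among them. Ndrg2, a protein of the NDRG family abundant in astrocytes, averaged 1216 ± 76.9 CPM in treated and 993 ± 94.7 CPM in saline knockout (log2 fold change 0.29, adjusted p = 0.0674). Plpp3, a lipid phosphatase, averaged 231 ± 21.7 and 273 ± 5.25 CPM in the same groups (log2 fold change -0.24, adjusted p = 0.0625). Neither gene's groups overlapped. The estimates farthest from 0 belonged to genes that also varied most within groups. Fabp7 had 52.9, 24.3, 17.6 and 23.2 CPM in treated knockout, against 54.3, 49.1, 60.2 and 59.9 CPM in saline knockout (log2 fold change -0.92, SE 0.487, adjusted p = 0.424). In FVB it ranged from 12.9 to 67.2 CPM. Hopx averaged 66.5 ± 20.3 CPM in treated and 99.6 ± 25.2 CPM in saline knockout (log2 fold change -0.58, adjusted p = 0.332). Without the libraries high in Ttr the log2 fold changes were -0.61 for Fabp7 (adjusted p = 0.963) and -0.16 for Hopx (adjusted p = 0.964). Aldh1l1, a folate enzyme widely used as an astrocyte marker, averaged 82.0 and 80.9 CPM.

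**Figure D3:**
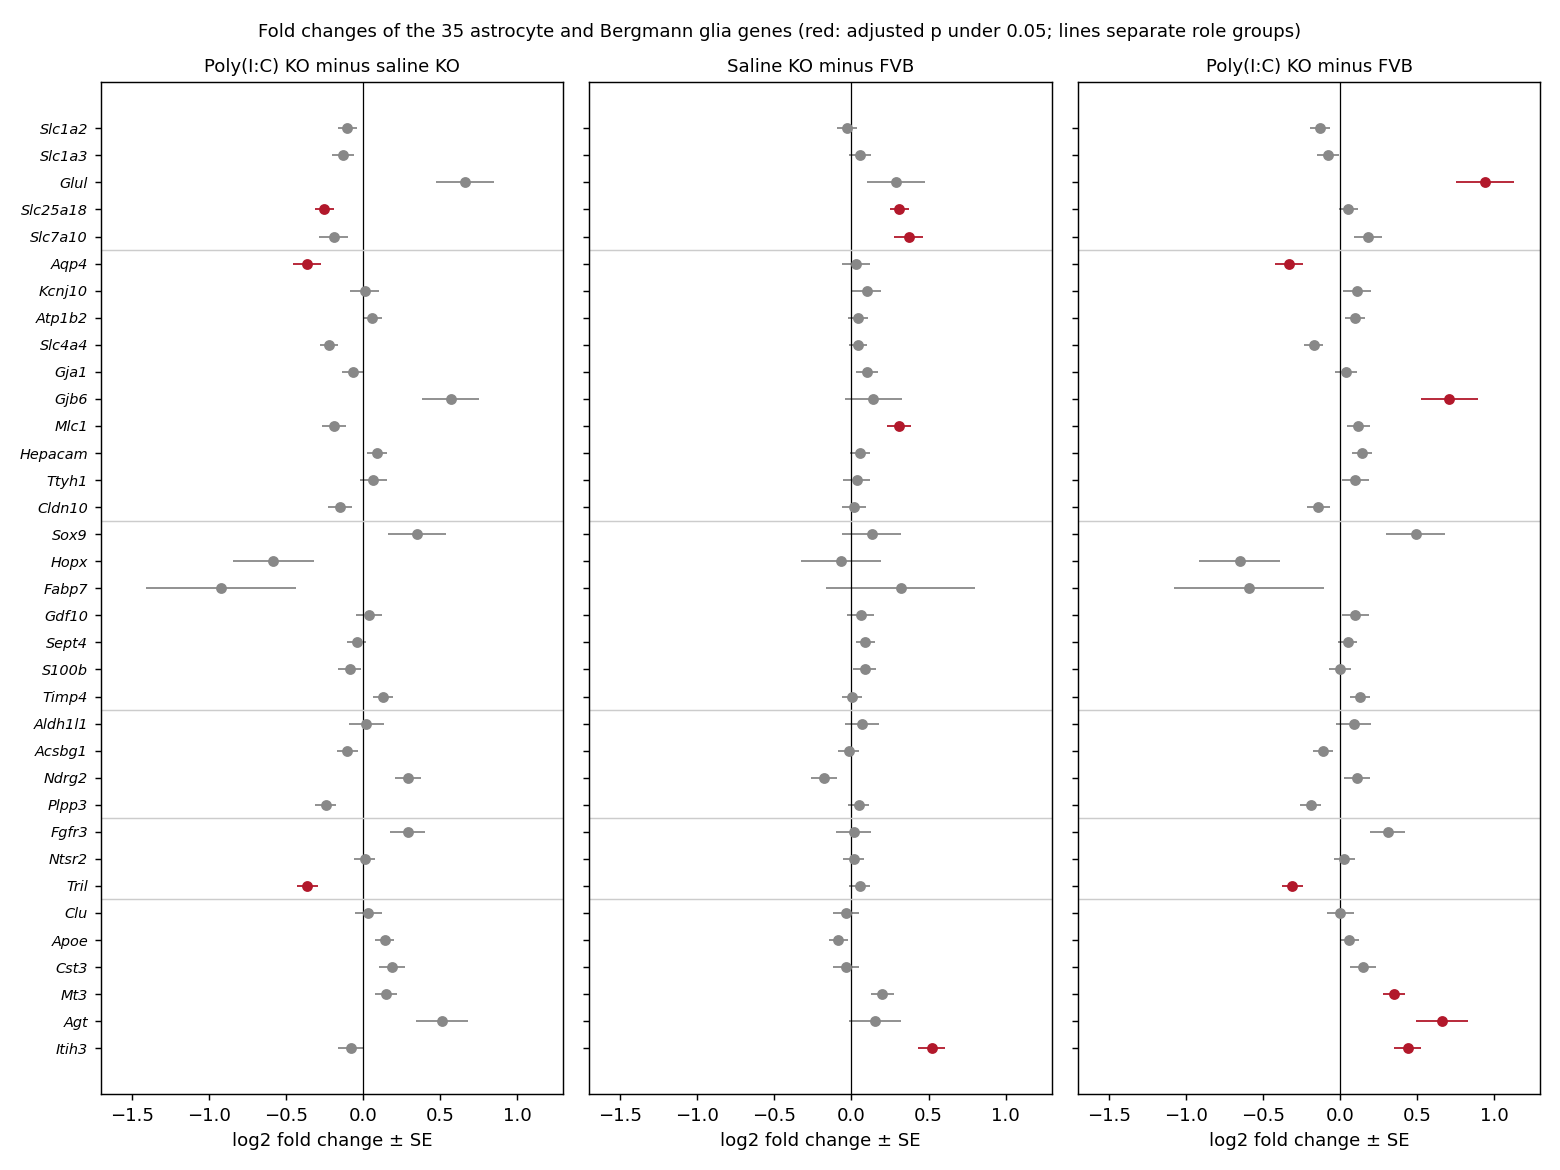
Log2 fold change ± SE of each of the 35 genes in the 3 comparisons, with treated knockout minus saline knockout at the left, saline knockout minus FVB in the middle and treated knockout minus FVB at the right. Red points passed an adjusted p of 0.05, and the widest bars are those of Fabp7 and Hopx.

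The difference between the knockout line and its background strain was read from saline knockout against FVB libraries. Of the 35 genes, 4 were higher, 0 were lower and 31 did not pass the test, while 1.53% of all tested genes passed (0.814% higher and 0.72% lower). The median log2 fold change of the 35 was 0.055, against 0.00331 over all genes. Estimates were above 0 for 28 of the 35 and for 9762 of the 19166 tested genes. Within 0.25 of 0 lay 29 of the 35 and 14164 of the 19166. Those above 0 numbered 18 of the 35 in treated against saline knockout and 24 in treated knockout against FVB. The groups did not overlap in 3 of the 35, all higher, beside 7.02% of all tested genes (3.57% higher and 3.45% lower). At an unadjusted p under 0.05 there were 6 of the 35 and 2299 of the 19166 tested genes. DESeq2 called the same 4, and 3.3% of all genes. The count of 4 became 2 without treated knockout 1, treated knockout 2, saline knockout 2, saline knockout 4 or FVB 2, with 0.933% to 1.53% of all genes called. It became 1 without saline knockout 3, FVB 1 or FVB 3, with 0.8% to 1.08% called. Without the libraries high in Ttr the count was 2, with 1.16% of all genes called.

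Itih3, which encodes a heavy chain of the hyaluronan-binding inter-alpha-trypsin inhibitors, was the farthest apart. It had 212, 164, 181 and 164 CPM in saline knockout, against 143, 116, 129 and 115 CPM in FVB. All saline knockout libraries were above all FVB libraries. The means were 180 ± 22.5 and 126 ± 13.2 CPM, a log2 fold change of 0.52 (SE 0.0873, adjusted p = 0.00322). Over 23 alternatives, including each library left out in turn, the Itih3 log2 fold change stayed between 0.43 and 0.59 and the adjusted p did not exceed 0.0198. It was 0.56 (adjusted p = 0.00418) without the libraries high in Ttr.

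In glutamate and amino acid transport, Slc25a18 and Slc7a10 were higher. Slc25a18, with the saline knockout values given above, had 55.7, 66.2, 59.8 and 62.1 CPM in FVB. Its saline knockout mean of 75.4 ± 3.63 CPM stood against 61.0 ± 4.39 CPM in FVB, without overlap (log2 fold change 0.31, SE 0.0631, adjusted p = 0.0162). That call ended without saline knockout 2, saline knockout 3, FVB 1 or FVB 3 (adjusted p = 0.0511 to 0.0626) and without the libraries high in Ttr (log2 fold change 0.3, adjusted p = 0.0812). The saline knockout libraries serve in this comparison and in that with treated knockout, so the opposite signs of Slc25a18 are not independent of each other. Set directly against FVB, treated knockout had a Slc25a18 log2 fold change of 0.055 (adjusted p = 0.666).

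Slc7a10, a small neutral amino acid transporter that carries serine and glycine, had 29.5, 32.8, 36.4 and 35.5 CPM in saline knockout, against 23.4, 27, 23.5 and 29.6 CPM in FVB. Saline knockout 1 and FVB 4 were nearly equal, so the groups overlapped. The means were 33.5 ± 3.1 and 25.9 ± 3.0 CPM (log2 fold change 0.37, SE 0.0924, adjusted p = 0.0475). The Slc7a10 call ended in 17 of 23 alternatives. They included leaving out treated knockout 1, 2 or 3, saline knockout 2, 3 or 4, or FVB 1, 2 or 3 (adjusted p = 0.0571 to 0.179), limma-voom (adjusted p = 0.0629), RLE and upper quartile scaling (adjusted p = 0.0505 and 0.0501), and the removal of the libraries high in Ttr (adjusted p = 0.129). In treated knockout Slc7a10 had 31, 31.1, 29 and 26.4 CPM.

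Mlc1, a membrane protein of astrocyte end-feet whose loss causes a leukoencephalopathy in people, had 280, 251, 299 and 272 CPM in saline knockout, against 235, 238, 215 and 199 CPM in FVB. The groups did not overlap. The means were 276 ± 20.1 and 222 ± 18.1 CPM (log2 fold change 0.31, SE 0.0774, adjusted p = 0.0476). The Mlc1 call ended without treated knockout 1 or 2, saline knockout 1, 3 or 4 or any single FVB library (adjusted p = 0.05 to 0.168), and under RLE or upper quartile scaling, limma-voom, no robust estimation or the Ttr covariate (adjusted p = 0.0505 to 0.0657). It held without the libraries high in Ttr, with a log2 fold change of 0.36 (adjusted p = 0.042). Hepacam, which binds Mlc1 in the membrane, averaged 152 ± 11.4 CPM in saline knockout and 147 ± 8.13 CPM in FVB (log2 fold change 0.054, adjusted p = 0.821).

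Fabp7 had an estimate as large as those of some called genes but did not pass (log2 fold change 0.32, SE 0.482, adjusted p = 0.87). Glul, with an estimate just below those of the called genes, did not pass either (log2 fold change 0.29, adjusted p = 0.625). All 10 water, ion and junction genes had estimates above 0 in this comparison, but 9 of them did not pass and their median was 0.048. Aqp4 averaged 466 ± 31.6 CPM in saline knockout and 457 ± 61.1 CPM in FVB (log2 fold change 0.029, adjusted p = 0.947), and Tril 82.4 ± 3.88 and 79.3 ± 4.86 CPM (0.055, adjusted p = 0.827). No identity, enzyme or receptor gene passed in edgeR or in DESeq2. At an unadjusted p under 0.05 there were 0 identity genes, 1 enzyme and 0 receptors. The enzyme was Ndrg2, with 993 ± 94.7 CPM in saline knockout and 1123 ± 122 CPM in FVB (log2 fold change -0.18, adjusted p = 0.403). Sept4 had the smallest p of the identity genes, with 558 ± 24.5 and 524 ± 32 CPM in the same groups (log2 fold change 0.09, adjusted p = 0.611).

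Treated knockout against FVB joins the difference of line and treatment, and shares its libraries with both comparisons above. Of the 35 genes, 5 were higher, 2 were lower and 28 did not pass the test, while 7.05% of all tested genes passed (3.81% higher and 3.24% lower). The median log2 fold change of the 35 genes was 0.089, against 0.001 over all genes. The groups did not overlap in 6 of the 35 that were higher and 4 that were lower, beside 14.2% of all tested genes (6.74% higher and 7.46% lower). An unadjusted p under 0.05 was reached by 13 of the 35 and 4082 of the 19166 tested genes. DESeq2 called 9, the same 7 with Sox9 and Slc4a4, while 10.1% of all genes were called. The count of 7 became 4 without treated knockout 3, treated knockout 4 or FVB 4, with 4.05% to 5.14% of all genes called. It became 3 without FVB 2, with 4.59% called. The count was 1, Mt3, without the libraries high in Ttr, with 2.81% of all genes called.

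Glul had the largest change among the 35 genes. Against the treated knockout values given above, of 917 to 1639 CPM, FVB had 881, 614, 686 and 628 CPM. All treated libraries were above all FVB libraries, although treated knockout 1 and FVB 1 were close. The means were 1349 ± 349 and 702 ± 123 CPM, 1.92 times as high in treated knockout (log2 fold change 0.94, SE 0.19, adjusted p = 0.014). The Glul call ended without FVB 2 (log2 fold change 0.88, adjusted p = 0.051), in a fit of only those 2 groups (adjusted p = 0.0525) and without the libraries high in Ttr, with a log2 fold change of 0.87 (adjusted p = 0.112). Slc1a2 had a treated mean of 847 ± 31.9 CPM against 927 ± 26.0 CPM in FVB without overlap (log2 fold change -0.13, adjusted p = 0.25, and -0.083, adjusted p = 0.805, with the libraries high in Ttr left out).

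Among the secreted and metal-binding proteins, 3 of 6 were higher. Mt3, the brain metallothionein that binds zinc and copper, had 170, 164, 162 and 171 CPM in treated knockout, 153, 132, 168 and 149 CPM in saline knockout, and 138, 120, 142 and 123 CPM in FVB. Treated and FVB libraries did not overlap, and the saline knockout libraries overlapped both. Its treated mean was 167 ± 4.58 CPM against 131 ± 11.1 CPM in FVB (log2 fold change 0.35, SE 0.073, adjusted p = 0.00593). It passed under all 23 alternatives, with a log2 fold change between 0.31 and 0.39 and an adjusted p of at most 0.0268. In saline knockout against FVB the Mt3 log2 fold change was 0.2 (adjusted p = 0.236).

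Itih3 had 158, 182, 180 and 164 CPM in treated knockout, all above the 4 FVB libraries. The treated mean of 171 ± 11.6 CPM stood against 126 ± 13.2 CPM in FVB (log2 fold change 0.44, SE 0.0872, adjusted p = 0.00395). Between treated and saline knockout the Itih3 log2 fold change was -0.077 (adjusted p = 0.739). Without the libraries high in Ttr, treated knockout against FVB gave 0.36 (adjusted p = 0.093).

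Agt, the angiotensin precursor, which astrocytes make in the brain, had 123, 105, 171 and 150 CPM in treated knockout, 106, 86.9, 97.7 and 96.3 CPM in saline knockout, and 112, 72.5, 90.4 and 73.4 CPM in FVB. Treated knockout 2 was below FVB 1, so those groups overlapped. The treated and FVB means were 137 ± 28.9 and 87.1 ± 18.7 CPM (log2 fold change 0.66, SE 0.169, adjusted p = 0.042). The Agt call ended when treated knockout 1, 3 or 4, any single saline knockout library, or FVB 2, 3 or 4 was left out (adjusted p = 0.0503 to 0.115). It also ended with no low-count filter, with only those 2 groups fitted, with the Ttr covariate (adjusted p = 0.0867, 0.11 and 0.082 for Agt) and with the libraries high in Ttr left out (adjusted p = 0.0574).

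Of the water, ion and junction genes, Gjb6 was higher and Aqp4 lower. Gjb6 had 106, 104, 149 and 147 CPM in treated knockout, 98.1, 78.2, 76.2 and 87.5 CPM in saline knockout, and 104, 59.1, 77.5 and 68.7 CPM in FVB. FVB 1 was nearly as high as the lowest treated library, and the other FVB libraries were clearly lower. The treated and FVB means were 126 ± 24.7 and 77.2 ± 19.1 CPM (log2 fold change 0.71, SE 0.185, adjusted p = 0.0461). The Gjb6 call ended without treated knockout 3 or 4, any single saline knockout library, or FVB 2, 3 or 4 (adjusted p = 0.0522 to 0.126). It also ended with no low-count filter, with only those 2 groups fitted, with the Ttr covariate (adjusted p = 0.0845, 0.103 and 0.0888 for Gjb6) and with the libraries high in Ttr left out (adjusted p = 0.206).

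Aqp4 had 400, 486, 412 and 528 CPM in FVB, overlapping the treated knockout values only at treated knockout 1 (406 CPM). Its log2 fold change was -0.33 (SE 0.0902, adjusted p = 0.0328). Leaving out treated knockout 2, 3 or 4 or FVB 2 or 4 ended the Aqp4 call (adjusted p = 0.0615 to 0.124), as did fitting only those 2 groups (adjusted p = 0.0554) and the Ttr covariate (adjusted p = 0.0732), and without the libraries high in Ttr the log2 fold change was -0.23 (adjusted p = 0.401). Tril had 80.7, 85.5, 74.5 and 76.6 CPM in FVB, all above the treated knockout libraries (log2 fold change -0.31, SE 0.0678, adjusted p = 0.00827). The Tril call held whichever single library was left out, and without the libraries high in Ttr the log2 fold change was -0.22 (adjusted p = 0.263).

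No identity or enzyme gene passed in this comparison by edgeR, and DESeq2 called Sox9. At an unadjusted p under 0.05 there were 2 of 7 and 1 of 4, beside 4082 of all 19166 tested genes. Sox9 averaged 45.7 ± 4.78 CPM in treated knockout and 32.6 ± 9.71 CPM in FVB (log2 fold change 0.49, adjusted p = 0.166). Hopx averaged 66.5 ± 20.3 and 104 ± 16.4 CPM in the same groups, without overlap (log2 fold change -0.65, adjusted p = 0.191), and had a log2 fold change of -0.34 (adjusted p = 0.629) with the libraries high in Ttr left out. Plpp3 averaged 231 ± 21.7 and 264 ± 16.6 CPM (log2 fold change -0.19, adjusted p = 0.0975). Several central astrocyte genes were near equal in the 2 groups. Gdf10 averaged 260 ± 19.6 and 243 ± 31.8 CPM, S100b 569 ± 47.6 and 569 ± 48.6 CPM, and Clu, a secreted chaperone, 520 ± 43.0 and 519 ± 22.7 CPM.

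Glul, Gjb6 and Agt, the genes with the largest rises over FVB, were high in some of the same libraries. FVB 1 had the highest FVB value of Glul (881 CPM), Gjb6 (104 CPM) and Agt (112 CPM), and the lowest FVB value of Fabp7 (12.9 CPM) and Sox9 (20 CPM). Treated knockout 3 and 4 were the highest treated libraries for Glul, Gjb6 and Agt alike. Fgfr3 and Aldh1l1, which did not pass in any comparison, had the same pattern. Fgfr3 had 101, 84.4, 120 and 124 CPM in treated knockout and its highest FVB value in FVB 1 (100 CPM). Aldh1l1 had 78.6, 68.6, 86.2 and 94.7 CPM in treated knockout and its highest FVB value in FVB 1 (90.8 CPM). In saline knockout Glul, Gjb6 and Agt were not highest in the same library, with Glul highest in library 4 (934 CPM) and Gjb6 and Agt in library 1 (98.1 and 106 CPM). The metal-responsive gene Mt1, from a list of other astrocyte genes, had 455, 424, 779 and 599 CPM in treated knockout, 305, 217, 266 and 245 CPM in saline knockout, and 425, 178, 229 and 201 CPM in FVB. Mt1 thus shared the high value in FVB 1 and in treated knockout 3 and 4. It was chosen for naming after its values were seen, so this likeness is a description only. How many other genes share the pattern was not counted. Its log2 fold change was 1.13 (adjusted p = 0.0951) against saline knockout and 1.13 (adjusted p = 0.0571) against FVB.

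**Figure D4:**
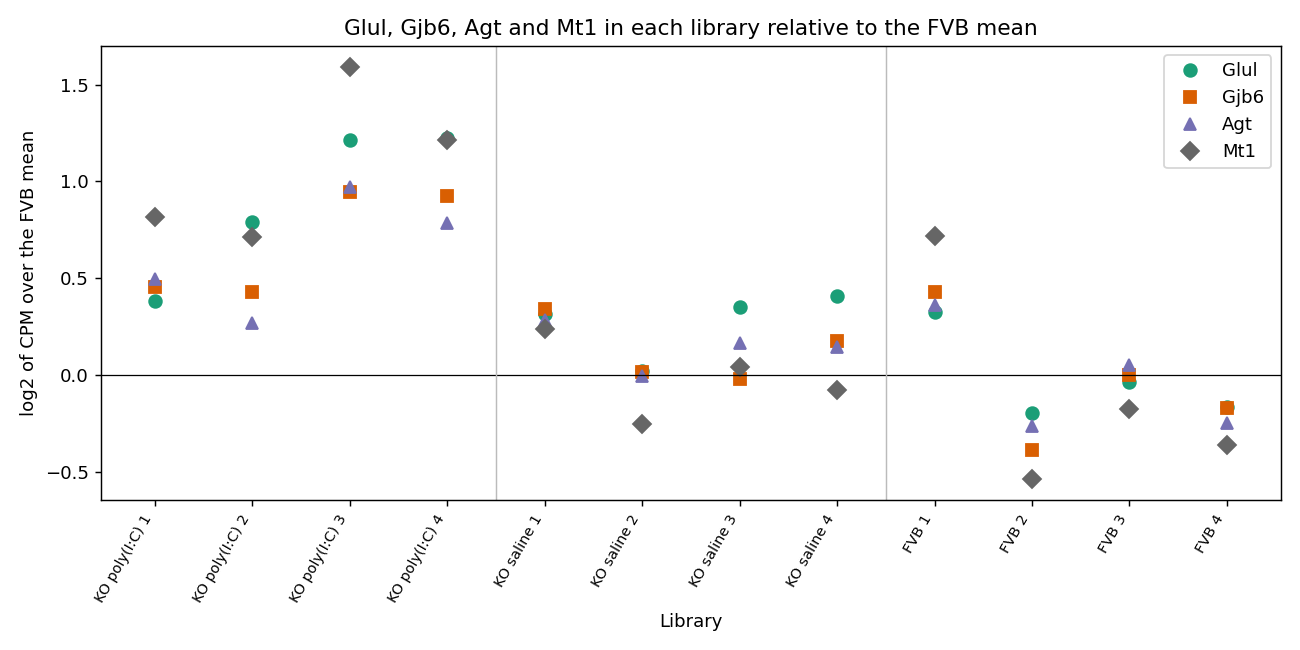
Log2 of the CPM of Glul, Gjb6, Agt and Mt1 in each of the 12 libraries over the mean of the 4 FVB libraries, with treated knockout at the left, saline knockout in the middle and FVB at the right. The 4 genes are highest in treated knockout 3 and 4, and FVB 1 lies above the other FVB libraries for all 4.

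A further 51 genes used as astrocyte or Bergmann glia markers were compared in the same way. In treated against saline knockout 3 were higher, 5 lower and 43 did not pass, while 2.87% of all tested genes passed. The median log2 fold change of the 51 was -0.051. Slc14a1, a urea transporter, averaged 40.2 ± 2.51 CPM in treated and 59.8 ± 5.47 CPM in saline knockout (log2 fold change -0.57, SE 0.0874, adjusted p = 0.000422). Htra1, a secreted serine protease, averaged 195 ± 27.5 and 139 ± 7.84 CPM (log2 fold change 0.48, SE 0.0828, adjusted p = 0.00155). Both calls held under all 23 alternatives. The calls of Tnc (log2 fold change -1.42), Id4 (-0.32) and Gria1 (-0.37), which were lower, ended in 7, 7 and 10 of the 23. Against FVB, the Gria1 log2 fold change was -0.035 (adjusted p = 0.87) in treated and 0.33 (adjusted p = 0.0848) in saline knockout. That of Slc14a1 was -0.3 (adjusted p = 0.0459) in treated and 0.28 (adjusted p = 0.149) in saline knockout. Those of Tnc and Id4 were -1.49 and -0.23 in treated and -0.073 and 0.087 in saline knockout. The count of rises became 1 without treated knockout 3, saline knockout 2 or FVB 3 and 6 without FVB 1. The count of falls became 2 without treated knockout 2 or saline knockout 1, and 1 without treated knockout 3 or 4 or saline knockout 2 or 3. Without the libraries high in Ttr, 2 were higher and 1 lower, and 1.09% of all genes were called. Gfap, the intermediate filament that marks reactive astrocytes, averaged 194 ± 44.2 CPM in treated knockout, 158 ± 12.9 CPM in saline knockout and 152 ± 16.1 CPM in FVB. Its log2 fold change was 0.3 (adjusted p = 0.375) against saline knockout and 0.35 (adjusted p = 0.204) against FVB.

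In saline knockout against FVB, 1 of the 51 passed, beside 1.53% of all tested genes. It was Fxyd1, a regulator of the sodium pump, with 55.3 ± 7.09 CPM in saline knockout and 42.9 ± 1.91 CPM in FVB (log2 fold change 0.37, adjusted p = 0.0342). That call ended without saline knockout 2, 3 or 4 or any single FVB library (adjusted p = 0.0576 to 0.116), under limma-voom (adjusted p = 0.0617) and with the libraries high in Ttr left out (adjusted p = 0.122). In treated knockout against FVB, 4 were higher and 7 lower, with a median of -0.046, while 7.05% of all tested genes passed. Fgfr2, a fibroblast growth factor receptor, averaged 60.2 ± 9.79 CPM in treated knockout and 81.3 ± 5.89 CPM in FVB (log2 fold change -0.43, adjusted p = 0.00763), and passed under all 23 alternatives. Between treated and saline knockout the Fgfr2 log2 fold change was -0.41 (adjusted p = 0.0185 by edgeR), a call that ended in 6 of 23. Against FVB the calls of Tnc, Gpr37l1, Cbs and Cyp4f15 each ended only without the libraries high in Ttr. The count of falls became 4 without treated knockout 2, FVB 1 or FVB 2, and 3 without treated knockout 3, treated knockout 4 or FVB 4. Without the libraries high in Ttr, 2 were higher and 1 lower, and 2.81% of all genes were called.

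Genes that astrocytes switch on in inflammation formed a separate list of 16. In treated against saline knockout 8 were higher and 0 lower, with a median log2 fold change of 1.23, and DESeq2 called 9 higher and 2 lower. Of all tested genes, edgeR called 2.87% and DESeq2 5.14%. At an unadjusted p under 0.05 there were 14 of the 16 and 2973 of the 19166 tested genes. Osmr, the oncostatin M receptor, averaged 10.5 ± 1.97 CPM in treated and 4.43 ± 0.425 CPM in saline knockout (log2 fold change 1.24, adjusted p = 5.3e-05). Cp, the copper-carrying ferroxidase ceruloplasmin, averaged 50.3 ± 7.59 and 24.2 ± 3.42 CPM (log2 fold change 1.05, adjusted p = 8.91e-05). Lcn2, an iron-binding secreted protein, averaged 40.8 ± 24.6 and 2.13 ± 1.53 CPM (log2 fold change 4.26, adjusted p = 0.00331). These 3 calls held under all 23 alternatives. Without the libraries high in Ttr, 3 of the 16 genes were higher, and 1.09% of all genes were called. Several of these genes are also made by endothelial cells and microglia, and the source cell was not tested. In saline knockout against FVB none of the 16 passed by edgeR, DESeq2 called 1, and 3 had an unadjusted p under 0.05. Over all tested genes edgeR called 1.53% and DESeq2 3.3%, and 2299 of 19166 had an unadjusted p under 0.05. In treated knockout against FVB 7 were higher and 1 was lower, while 7.05% of all tested genes passed. The gene that was lower was Vim, an intermediate filament protein, chosen for naming after its values were seen (log2 fold change -0.48, SE 0.121, adjusted p = 0.03). With the libraries high in Ttr left out 4 were higher and 0 lower, and 2.81% of all genes were called. With a single library left out 6 to 9 were higher. The Vim call also ended without treated knockout 2, 3 or 4, FVB 1 or FVB 2.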

How the data were processed

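The authors deposited raw read counts per gene. Per the submitters' processing notes, reads were trimmed with Trim Galore, aligned to GRCm39 with HISAT2 and counted with featureCounts; versions, the strand setting and the treatment of multi-mapping reads were not given in the sources used here. Reads shared by near-identical or overlapping genes are therefore uncertain. Per the labels' protocols, RNA came from TRIzol extraction and libraries from a TruSeq kit. Symbols were matched by Ensembl identifier and covered 99.4% of counts.

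Counts were filtered with filterByExpr (minimum count 10, minimum total 15), scaled by TMM and fitted with robust quasi-likelihood models in edgeR 4.0.16 (R 4.3.3) on 3 group means, leaving 9 residual degrees of freedom. The 3 contrasts were adjusted by Benjamini-Hochberg over 19166 genes, and an adjusted p under 0.05 counted as passing the test, as a gene being called, higher or lower. The common biological coefficient of variation was 0.152. CPM values use TMM-scaled library sizes. Groups do not overlap where every library of one lies beyond every library of the other. Scripts were tested on simulated data. Counting error is small at these depths, so the spread between libraries sets the precision.

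Alternatives were DESeq2 1.42.0, limma-voom (limma 3.58.1), scaling by RLE or upper quartile, leaving out the filter or asking for 10 counts in 8 libraries, fitting the 2 compared groups alone, no robust estimation, a replicate block, an adjusted p under 0.1 and each library left out. Leaving out libraries with Ttr above 1000 CPM, and log2 Ttr as a covariate, were added after seeing the data. Members called in any comparison are given in every library, and others by role with the smallest p. From the other astrocyte and reactive lists up to 6 genes per comparison could be named. Mt1, Gfap and Vim were named outside that rule. The members and lists were chosen with earlier results of these data known. Promoter windows are from RefSeq on GRCm38.p6. Neighbouring genes are not reported.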

Additional observations from a re-analysis of the deposited data

Results flagged for a closer look

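In groups of 4 libraries, a library was picked out where its gap to the nearest other, over the whole range of the group, exceeded Dixon's critical value at 95%. This held in 4 of 105 groups of the 35 genes, where chance alone gives about 1 in 20. Slc1a2 was lowest in saline knockout 4 with 802 CPM, and the other saline knockout libraries had 938 to 951 CPM. Slc25a18 was lowest in treated knockout 3 with 62 CPM, within a group that otherwise had 63.7 to 63.9 CPM. Gja1 was lowest in treated knockout 2 with 302 CPM, where the other treated libraries had 361 to 367 CPM. Fgfr3 was highest in FVB 1 with 100 CPM, and the other FVB libraries had 81.1 to 83.6 CPM. Neither Slc1a2, Gja1 nor Fgfr3 passed the test in a comparison.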

How the results depend on the processing

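Of the calls of genes in the 3 lists that the rule names, 0 changed direction under an alternative. In treated against saline knockout, the 550 genes called became 986 with DESeq2, 917 at an adjusted p under 0.1 and 215 without the libraries high in Ttr, and the 3 of the 35 became 8, 6 and 0. The 3 became 5 with limma-voom and 5 without a filter, where 2.98% and 2.14% of all genes were called. Each library left out gave 347 to 689 genes and 1 to 4 of the 35. In saline knockout against FVB, the 294 genes became 633 with DESeq2, 506 without a filter and 494 at an adjusted p under 0.1, and 156 to 300 with a library left out. The 4 of the 35 became 2 with limma-voom, RLE scaling, upper quartile scaling, no robust estimation, the libraries high in Ttr left out or the Ttr covariate, and 1 to 4 with a library left out. Of all genes, those 6 settings called 1.17%, 1.51%, 1.53%, 1.61%, 1.16% and 1.51%, in the order named. In treated knockout against FVB, the 1352 genes became 2123 at an adjusted p under 0.1, 556 without the libraries high in Ttr, and 791 to 1542 with a library left out. The 7 of the 35 became 3 in a fit of only those 2 groups, 1 without the libraries high in Ttr, 4 with the Ttr covariate, and 3 to 7 with a library left out. Of all genes, the fit of 2 groups called 7.45%, the fit without the libraries high in Ttr 2.81% and the Ttr covariate 5.03%. The cause of these changes was not tested.

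Of 12 pairs of libraries with the same number in different groups, 5 had deviations correlated over 0.1 (range -0.127 to 0.322). Of 12 libraries, 5 correlated best with their own number. The counts expected without pairing were not worked out, so these figures do not decide whether the numbers pair samples. The labels do not say that a number marks a shared litter, batch or day, so the numbers were not taken as pairing samples. With the replicate block 563, 274 and 1322 genes and 3, 3 and 7 of the 35 were called in the 3 comparisons in the order above. The call lost was that of Slc7a10 in saline knockout against FVB (adjusted p = 0.0719).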
